A study of Homo sapiens with 24 samples.

Results

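Expression of 9 genes of complement and coagulation was examined in OE33 cells, a human esophageal adenocarcinoma line, among 61860 Ensembl identifiers counted in 24 RNA-seq libraries. The 9 genes are the complement proteases C1R and C1S, the central component C3, the protease CFI, the membrane regulators CD46, CD55 and CD59, the coagulation initiator F3 (tissue factor) and the thrombin inhibitor SERPIND1 (heparin cofactor II). They were found by mapping Ensembl identifiers to these symbols, and they had been chosen from measured values of these same libraries, so their levels and fold changes are given as a description without p-values. Each of 4 experiments compared 3 treated with 3 control libraries of its own, so no control was shared. In the diet experiment, OE33 cells grew for 3 weeks as subcutaneous xenografts in male BALB/c-nu nude mice, which lack mature T cells, bought at 4 weeks of age and fed a high-fat diet (HFD) or normal diet (ND) for 8 weeks before injection. In the other 3 experiments cultured OE33 cells were transfected with plasmids. Cells received HA-TRIM15 or the empty vector EV for 48 h, shYY2 or shControl for 72 h, or shFOXRED1 or a separate shControl for 72 h. All groups thus derive from 1 cell line, although the xenografts may also hold mouse cells. Which of several shRNAs was sequenced was not given in the sources used here. The labels do not say whether the 3 libraries of a group came from separate cultures or, for xenografts, from different mice. The spread between the 3 libraries may thus be technical.

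Complement is a cascade of plasma proteins that tags and lyses foreign or damaged cells. In the classical pathway C1r and C1s are the serine proteases of the C1 complex, and all pathways meet at C3, whose cleavage deposits C3b on surfaces. Host cells protect themselves with CD46, a cofactor through which factor I (CFI) inactivates C3b and C4b, with CD55, which speeds the decay of the convertases, and with CD59, which blocks the membrane attack complex. Tissue factor on a cell surface binds factor VII and starts coagulation, while heparin cofactor II inhibits thrombin. The liver makes most of the circulating proteins of both systems, and epithelial tumors commonly express the membrane regulators and tissue factor.

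Counts summed to between 14299807 and 45994561 per library, and levels are given as CPM, counts scaled to a common library size, after normalization with the TMM method within each experiment. The targeted genes moved in the labelled directions. TRIM15 had 111, 130 and 181 counts with HA-TRIM15 and 0 in all 3 EV libraries, YY2 was at 0.661 ± 0.0628 CPM (SD, n = 3) with shYY2 and 2.35 ± 0.0241 in its control, and FOXRED1 at 10.1 ± 1.19 with shFOXRED1 and 17.4 ± 0.286 in its control. All 12 epithelial markers reached a mean of 1 CPM or more in every group, with sums from 12131 to 19294 CPM. Of 14 macrophage and leukocyte markers, CD14 alone did so. The EV libraries held counts of liver genes that other groups lacked. ALB had 31, 60 and 101 counts in EV, 0, 0 and 32 with HA-TRIM15, and at most 3 in any library of the other 6 groups.

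Set side by side over all libraries, normalized jointly and divided by exon length, the 9 genes fell into 3 ranges. F3 was the highest, from 108 to 805 CPM per kilobase with a median of 500. CD46 ranged from 47.7 to 87.7, CD55 from 36.3 to 69.7, CD59 from 19.6 to 51.5 and C3 from 25.8 to 52.4 CPM per kilobase. C1R (0.0991 to 2.05), C1S (0.11 to 1.51) and SERPIND1 (0 to 1.59) were low, and CFI did not exceed 0.0127 CPM per kilobase. OE33 cells thus carried abundant RNA for C3, its membrane regulators and tissue factor in every group, beside little for C1R, C1S and SERPIND1 and next to none for CFI. In bulk RNA, a change in the RNA of every cell and a change in the number of expressing cells cannot be told apart.

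Of the 9 genes, 8 had enough counts to be tested in the diet and shFOXRED1 experiments and 7 in the other 2. A call was an adjusted p under 0.05. With HFD, 7 genes were called higher and 1 was called lower, where 25.6% of all genes tested were called higher and 23.9% lower. With HA-TRIM15, 2 were called higher and 0 lower, against 12.5% and 9.53% of all genes. With shYY2, 5 were called higher and 1 lower, against 36.8% and 38.1% of all genes. With shFOXRED1, 0 were called higher and 5 lower, against 16.8% and 19.7% of all genes. Since these contrasts were known when the genes were chosen, the counts are not read against those shares.

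**Figure D1:**
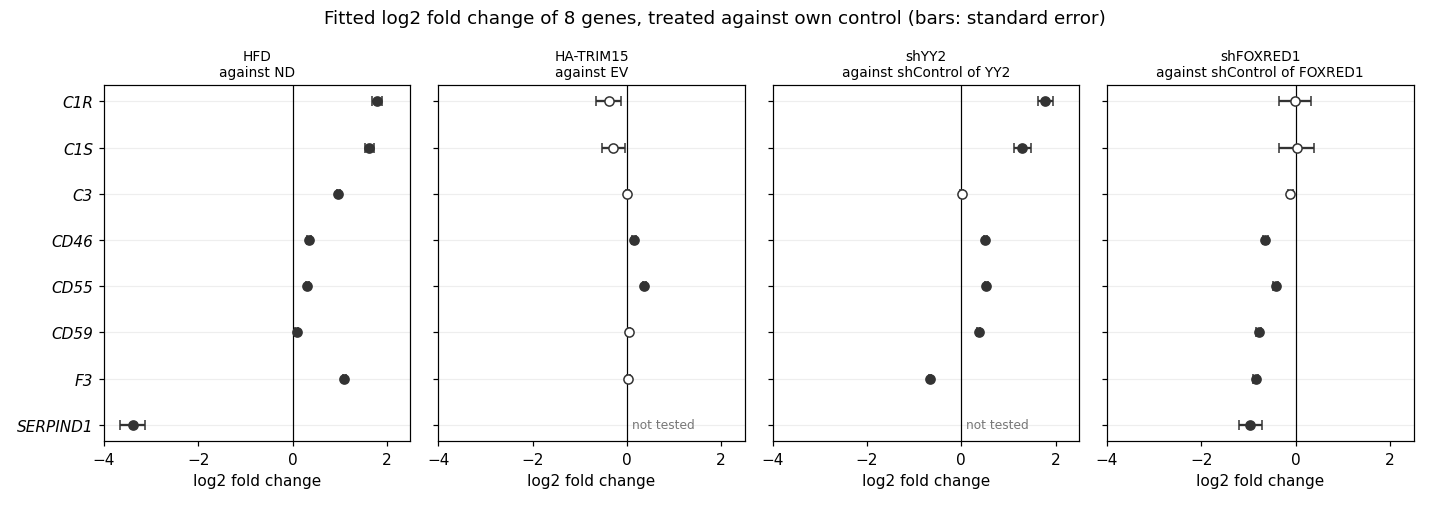
Fitted log2 fold change (x axis) of 8 of the 9 genes (y axis) in the 4 comparisons of treated with own control libraries. Points are the fitted values, bars their standard errors, and filled points passed an adjusted p of 0.05. C1R and C1S lie far to the right with HFD and with shYY2, the 3 membrane regulators lie to the left of 0 with shFOXRED1 alone, and F3 lies to the right with HFD and to the left with both shRNAs.

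C1R and C1S, the paired proteases of C1, were higher in HFD tumors and with shYY2. C1R (ENSG00000159403, chr12:7080199-7092607, minus strand, GRCh38) had 12.4, 10.8 and 10.3 CPM in the HFD xenografts and 2.77, 3.47 and 3.26 in the ND xenografts. All 3 HFD values lay above all ND values, and the fitted log2 fold change was 1.79 (standard error 0.11). With shYY2 it was at 5.66, 7.26 and 8.01 CPM, against 1.87 to 2.36 in the control. The groups again did not overlap, and the log2 fold change was 1.78 (standard error 0.16). C1R stood at 0.753 ± 0.172 CPM with HA-TRIM15 and 0.985 ± 0.152 in EV (log2 fold change -0.39, standard error 0.27), and at 1.09 in both groups of the shFOXRED1 experiment. In those 2 experiments the groups overlapped. The liver also makes C1R, C1S, C3 and SERPIND1, and the EV libraries held liver transcripts, so EV levels of these genes are read with care. The part of such RNA in their values was not tested.

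C1S (ENSG00000182326, chr12:6988259-7071032, plus strand, GRCh38) lies close to C1R on the same chromosome, and its product cleaves C4 and C2 once C1r has activated it. It had 9.96, 10 and 9.08 CPM with HFD and 3.26, 3.08 and 2.98 with ND, a log2 fold change of 1.63 (standard error 0.099). With shYY2 the values were 3.59, 3.84 and 4.06 CPM, and 1.15, 1.83 and 1.71 in the control, a log2 fold change of 1.29 (standard error 0.18). Neither pair of groups overlapped. The log2 fold changes with HA-TRIM15 (-0.29, standard error 0.24) and shFOXRED1 (0.022, standard error 0.37) came from groups that overlapped. Per kilobase of exon, the level of C1R was 1.73 to 2.17 times that of C1S in the shYY2 libraries and 1.13 to 2.25 times in their controls, and 1.19 to 1.36 times with HFD and 0.934 to 1.24 times with ND.

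Annotated exons of other genes touch both. GENCODE 29 places 672 of the 5885 exon bases of C1R (11.4%) within exons of C1RL on the same strand, and 229 of the 6462 of C1S (3.54%) within exons of EMG1, so reads there could have been counted for either gene. C1RL, a related protease, did not pass the test with HFD (log2 fold change -0.035, adjusted p = 0.542) and rose with shYY2 (0.67, adjusted p = 2.52e-08). EMG1 was lower with shYY2 (-0.79, adjusted p = 0.000516). Fibroblasts are a known source of C1R and C1S, and the summed level of 12 fibroblast markers was 24.6 to 27.7 CPM with HFD and 31.3 to 34.6 with ND. Almost all of this sum was COL1A1 (25.5 against 31.6 CPM). At few counts each, FAP (0.269 against 0.187 CPM), COL6A3 (0.136 against 0.103) and PDGFRB (0.11 against 0.0784) were higher with HFD. FBLN1 (0.527 against 0.537), COL1A2, COL3A1 and LUM were lower, and the rest had hardly any counts. In the shYY2 experiment the sum was 44 to 45.6 CPM and 11.5 to 12.9 in the control, almost all of it COL1A1 (42.7 against 10.6 CPM). FBLN1 (18, 28 and 24 counts against 5, 4 and 8) and PDGFRB (2, 5 and 7 against 0, 0 and 2) were higher with shYY2 too, FAP had 7, 8 and 3 counts against 7, 16 and 14, and COL6A3 3, 3 and 4 against 6, 8 and 5. The other 7 markers had at most 2 counts in any of these 6 libraries. The part of fibroblast marker expression in the change of C1R and C1S was not tested.

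C3 (ENSG00000125730, chr19:6677704-6730562, minus strand, GRCh38) was close to 2 times as high in HFD as in ND tumors and moved little in the cultured cells. It had 447, 420 and 433 CPM with HFD and 220, 226 and 220 with ND, which did not overlap, for a ratio of the means of 1.95 and a log2 fold change of 0.97 (standard error 0.035). With HA-TRIM15 it was at 242, 226 and 235 CPM and in EV at 238, 227 and 236. With shYY2 it was at 277, 277 and 274 CPM and in the control at 280, 278 and 264. Within both of these experiments the groups overlapped and the log2 fold changes were 0.0062 (standard error 0.035) and 0.013 (standard error 0.03). With shFOXRED1 the values of 330, 330 and 315 CPM lay below the 353, 345 and 356 of the control, a log2 fold change of -0.11 (standard error 0.048) that was not called. With the replicate number as a block, since same-numbered libraries deviated together in this experiment, it was called lower with the same log2 fold change of -0.11.

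CFI (ENSG00000205403, chr4:109740694-109802179, minus strand, GRCh38), the protease for which CD46 is a cofactor, had 3 counts in all over the 24 libraries. One count each fell in 1 HFD and 2 shYY2 libraries, and the other 21 libraries had 0. A count of 0 allows up to 3 counts, which is between 0.0652 and 0.21 CPM over the depths of these libraries, counting error only. CFI was tested in none of the 4 experiments, and no fold is given. GENCODE 29 places 1562 of its 4875 exon bases (32%) within exons of AC126283.2 on the same strand.

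**Figure D2:**
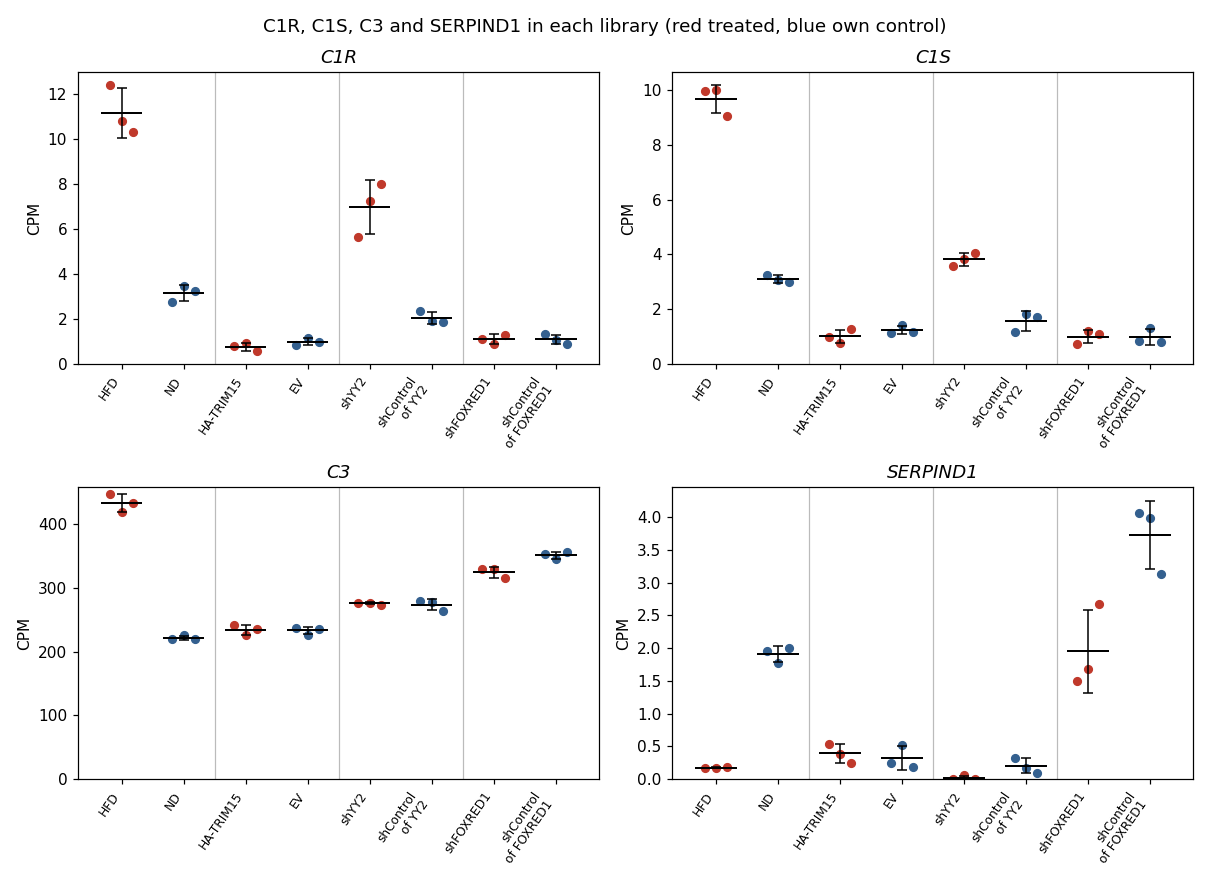
CPM (y axis) of C1R, C1S, C3 and SERPIND1 in each of the 24 libraries (points, red treated and blue own control), by group (x axis), with the mean and SD of 3 libraries. HFD tumors have the highest C1R, C1S and C3, shYY2 libraries stand above their control for C1R and C1S and not for C3, and SERPIND1 is lower in HFD than in ND tumors and with shFOXRED1 than in its control.

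The membrane regulators CD46, CD55 and CD59 moved in 1 direction within each experiment, higher with HFD, HA-TRIM15 and shYY2 and lower with shFOXRED1, but CD59 was not called with HA-TRIM15. CD46 (ENSG00000117335, chr1:207752057-207795513, plus strand, GRCh38) had 453, 463 and 534 CPM with shFOXRED1 and 745, 735 and 772 in the control. The groups did not overlap, and the log2 fold change was -0.64 (standard error 0.057). With shYY2 it had 666, 694 and 668 CPM, against 477, 473 and 478, a log2 fold change of 0.51 (standard error 0.027). With HFD the mean was 585 ± 7.98 CPM (SD, n = 3) and with ND 460 ± 15.6, a log2 fold change of 0.35 (standard error 0.035). With HA-TRIM15 the mean was 454 ± 16.7 CPM and in EV 408 ± 5.2, a log2 fold change of 0.15 (standard error 0.033). The groups did not overlap in any of the 4 experiments.

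CD55 (ENSG00000196352, chr1:207321376-207386804, plus strand, GRCh38), the accelerator of convertase decay, lies on the same chromosome as CD46. It had 298, 305 and 309 CPM with HA-TRIM15 and 239, 232 and 233 in EV, a log2 fold change of 0.37 (standard error 0.031), the highest of the 7 members tested in that experiment. With shYY2 it had 356, 348 and 365 CPM against 239, 244 and 255, a log2 fold change of 0.53 (standard error 0.032). It was also higher with HFD, at 415 ± 6.15 CPM against 334 ± 11.4 (0.31, standard error 0.035), and lower with shFOXRED1, at 226 ± 9.94 CPM against 303 ± 12.2 (-0.42, standard error 0.053). None of these pairs of groups overlapped.

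CD59 (ENSG00000085063, chr11:33703010-33736491, minus strand, GRCh38), which stops the last step of the lytic pathway, had the lowest log2 fold change of the 3 regulators with shFOXRED1. It had 206, 218 and 222 CPM there and 368, 368 and 371 in the control, a log2 fold change of -0.78 (standard error 0.05). With shYY2 it had 523, 516 and 513 CPM against 402, 391 and 408 (0.37, standard error 0.027). With HFD the values of 485, 487 and 476 CPM lay above the 467, 442 and 454 with ND, for a log2 fold change of 0.087 (standard error 0.034), and this call was lost in 8 of 11 alternative analyses. With HA-TRIM15 the log2 fold change was 0.042 (standard error 0.029) and was not called. GENCODE 29 places 629 of its 10358 exon bases (6.07%) within exons of AL049629.2 on the same strand.

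Promoters of CD46 and CD55 are shown because both genes were called in all 4 experiments, each time in the same direction as the other. Both were chosen with these contrasts known, and the share of all genes called in all 4 experiments is not given here. The calls are thus a reason for display only. The sequences are the 250 bases before the RefSeq start on GRCh38.p14, 5′ to 3′ on the strand of the gene, with capitals marking GGGCGG, the core bound by SP1, on either strand.

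CD46 (chr1:207751788-207752037, plus strand): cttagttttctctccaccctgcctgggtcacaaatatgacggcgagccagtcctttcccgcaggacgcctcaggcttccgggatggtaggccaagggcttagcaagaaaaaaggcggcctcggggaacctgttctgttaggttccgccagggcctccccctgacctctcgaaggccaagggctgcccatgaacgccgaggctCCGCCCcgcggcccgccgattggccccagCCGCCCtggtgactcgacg

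CD55 (chr1:207321428-207321677, plus strand): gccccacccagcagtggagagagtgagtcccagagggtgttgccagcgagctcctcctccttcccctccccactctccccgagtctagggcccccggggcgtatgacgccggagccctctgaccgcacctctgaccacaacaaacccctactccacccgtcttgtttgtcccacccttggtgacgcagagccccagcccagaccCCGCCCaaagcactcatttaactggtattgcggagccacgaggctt

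Windows of 250 bases before to 50 bases after the start were searched on both strands for 7 motifs. At least 1 window of each regulator held GGGCGG, as did 45% of 35116 RefSeq promoters. The first CD46 entry held 3 matches, CD55 held 1 and the first of 4 CD59 entries held 2. A loose NF-kappaB pattern, GGG and CC with any 5 bases between, which can overlap GGGCGG, was in at least 1 window of all 3, as in 58.7% of all promoters. CCAAT was in the CD46 window and in 3 of the 4 CD59 windows, as in 34.6% of all promoters. ATGGCG, the core shared by YY factors, was in none of the windows of C1R, CD46, CD55, CD59, CFI, F3 and SERPIND1, and 10.7% of all promoters held it. The ISRE pattern of interferon-regulated genes, GAAA and GAAA with any 2 bases between, was in none of them either, and 3.57% of all promoters held it. C1R had 2 entries, each with 1 match to the NF-kappaB pattern and none to the other 6 motifs. RefSeq windows of C3 and C1S were not analysed here.

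F3 (ENSG00000117525, chr1:94529225-94541800, minus strand, GRCh38) was higher in HFD tumors and lower after both knockdowns. The promoter is shown because the gene was the most abundant of the 9 and moved in both directions. Capitals mark TGANTCA, the AP-1 site, near the 5′ end, and GGGCGG on either strand.

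F3 (chr1:94541760-94542009, minus strand): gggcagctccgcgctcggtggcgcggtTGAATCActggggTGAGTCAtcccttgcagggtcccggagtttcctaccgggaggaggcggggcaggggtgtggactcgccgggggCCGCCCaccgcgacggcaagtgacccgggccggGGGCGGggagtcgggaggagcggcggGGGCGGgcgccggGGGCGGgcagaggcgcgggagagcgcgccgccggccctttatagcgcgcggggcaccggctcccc

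TGANTCA occurred 2 times in this window, starting at positions -223 and -210 from the start, and 7.71% of all promoters held it. One CD59 entry held 3 matches, and no other window of the 7 genes with an entry held any. GGGCGG occurred 4 times in the F3 window. TATAAA occurred 1 time, at position -28, and was in 11.5% of all promoters.

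F3 had 2106, 2139 and 2150 CPM with HFD and 1013, 950 and 1012 with ND. The groups were far apart, 2.15 times as high on average with HFD, for a log2 fold change of 1.10 (standard error 0.034). With shYY2 it had 1130, 1117 and 1129 CPM against 1741, 1737 and 1862, a log2 fold change of -0.66 (standard error 0.029). With shFOXRED1 it had 314, 331 and 334 CPM against 586, 598 and 584, a log2 fold change of -0.85 (standard error 0.047). With HA-TRIM15 the values of 2073, 2218 and 2258 CPM overlapped those of EV, 2065, 2177 and 2164 (0.032, standard error 0.033). The control level differed between experiments. In joint units it was 765 ± 22.7 CPM per kilobase in EV, 614 ± 24.8 in the shControl of YY2, 337 ± 13.3 in ND and 204 ± 3.39 in the shControl of FOXRED1. These 4 levels did not overlap. Both shControl groups were cultured cells transfected for 72 h, so they differ by experiment and not by transfection time or growth in a mouse. Between any other pair of these controls, experiment cannot be told apart from transfection time or growth in a mouse.

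**Figure D3:**
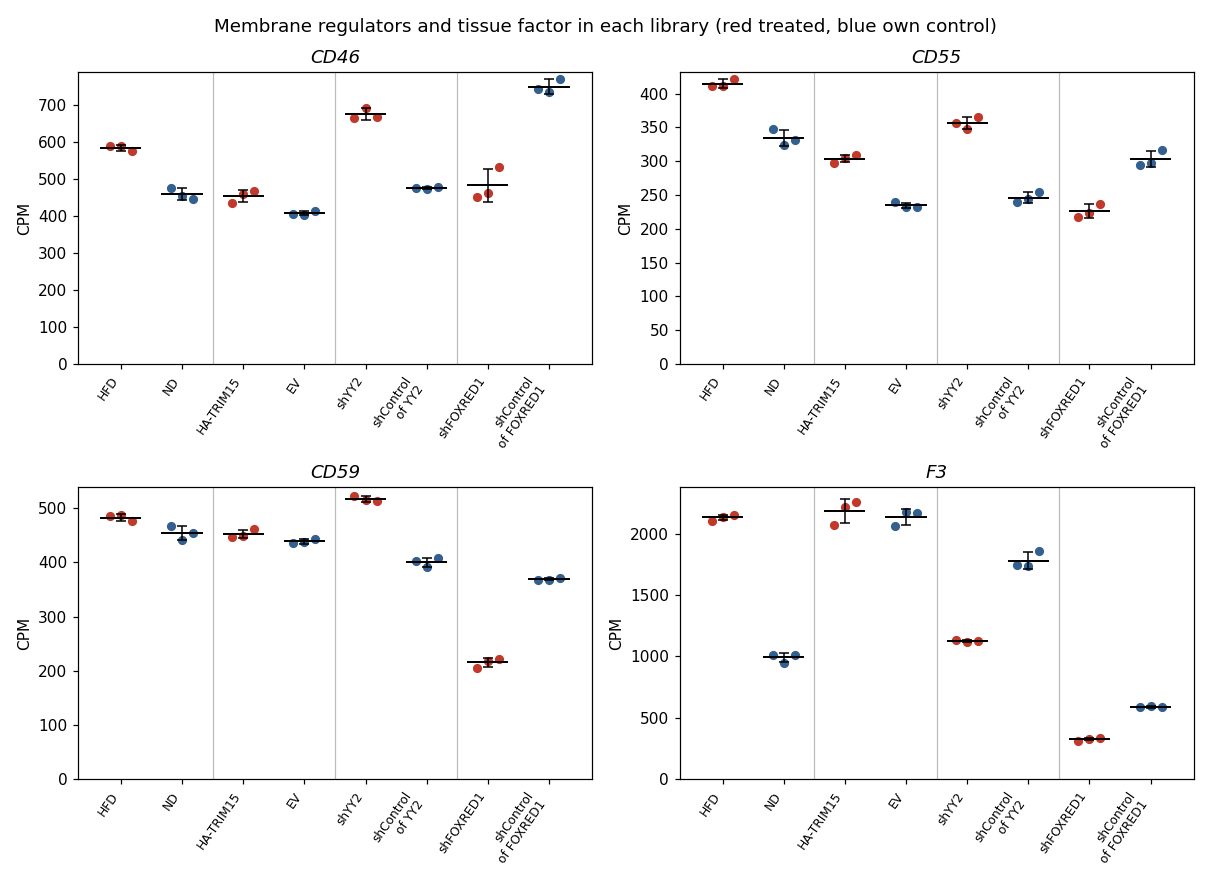
CPM (y axis) of CD46, CD55, CD59 and F3 in each of the 24 libraries (points, red treated and blue own control), by group (x axis), with the mean and SD of 3 libraries. All 3 regulators are lower with shFOXRED1 and higher with shYY2 than in their controls, while F3 is lower with either shRNA and highest in HFD tumors, HA-TRIM15 and EV.

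SERPIND1 (ENSG00000099937, chr22:20773879-20787720, plus strand, GRCh38), which inhibits thrombin in the presence of heparin or dermatan sulfate, was lower in HFD tumors and with shFOXRED1. It had 4, 3 and 7 counts with HFD and 52, 85 and 43 with ND, or 0.174 ± 0.00998 CPM (SD, n = 3) and 1.91 ± 0.116. The ratio of ND to HFD means was 11, and the log2 fold change was -3.39 (standard error 0.26). With shFOXRED1 it had 27, 31 and 39 counts and 74, 60 and 46 in the control, a log2 fold change of -0.96 (standard error 0.25). Neither pair of groups overlapped in CPM. It had too few counts to be tested in the other 2 experiments, with 11, 6 and 4 counts with HA-TRIM15 and 5, 12 and 5 in EV, and 0, 1 and 0 with shYY2 and 6, 3 and 2 in the control. SERPIND1 lies wholly within PI4KA on the opposite strand and shares no exon base with it. PI4KA was lower with HFD by a smaller margin (log2 fold change -0.31, adjusted p = 6.32e-06), and whether reads were assigned by strand was not settled by the sources used here.

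The order of the 8 groups, in joint CPM per kilobase, differed between members. C3 was highest in HFD (50.8 ± 1.5) and lowest in ND (26 ± 0.32), with all cultured groups between. C1R descended from HFD (1.86 ± 0.175), through shYY2 (1.2 ± 0.202) and ND (0.526 ± 0.0581) to the shControl of YY2 (0.344 ± 0.0474) without overlap between neighbors, and the lower 4 groups, from 0.184 to 0.131, overlapped. C1S had the same first 4 groups. CD46 was highest in the shControl of FOXRED1 (85.7 ± 1.85) and lowest in EV (48.2 ± 0.615), and CD55 highest in HFD (68.6 ± 0.962) and lowest with shFOXRED1 (37.8 ± 1.64). CD59 ran from 50.7 ± 0.739 with shYY2 to 20.5 ± 0.802 with shFOXRED1, next to 35.4 ± 0.056 in its control. F3 was highest with HA-TRIM15 (779 ± 33), which overlapped EV, and lowest with shFOXRED1 (112 ± 3.85). SERPIND1 was highest in the shControl of FOXRED1 (1.45 ± 0.208), followed by shFOXRED1 (0.753 ± 0.243) and ND (0.73 ± 0.0467), which overlapped. Over the 9 genes, 34 of 63 neighboring pairs in these orders did not overlap. The same share over all genes is not given here, so the count is a description only. All neighboring groups overlapped for CFI, which had 3 counts in all.

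The genes whose profile was most like that of each member are given by Pearson's r over the 24 libraries of log2 CPM centred on the mean of the experiment's own controls. This is a description over 14514 or 14515 genes, without a p-value, and the points share controls, libraries and depth within an experiment. C1R was closest to SLC50A1 (0.970), PCTP (0.960) and TGFB2 (0.959), and C1S to HERPUD2 (0.958), STK35 (0.943) and TGFBI (0.943). C1R and C1S had an r of 0.925 with each other. C3 was closest to TRIM37 (0.987), SCRN1 (0.986) and CCNC (0.983). Among the regulators, CD46 was closest to AHNAK (0.987), OSBPL1A (0.985) and TXNRD1 (0.984), CD55 to KLHL5 (0.973), SPOPL (0.972) and RIOK3 (0.972), and CD59 to VCL (0.996), PARP4 (0.984) and SGPL1 (0.984). The 3 regulators had an r between 0.876 and 0.953 with each other and between 0.331 and 0.448 with F3. F3 was closest to EIF5A2 (0.991), ANXA2 (0.990) and VDAC1 (0.989), and SERPIND1 to ANK1 (0.945), LCP1 (0.940) and PHACTR4 (0.931).

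The surrounding pathways were described with lists of 60 complement and 43 coagulation genes, which hold the members too. Of these, 25 complement and 12 coagulation genes had at most 3 counts in every library. They included C2, C4A, C4B, C6, C7, C8A, C8B, C9, CR1 and CFI for complement, and F7, F9, F11 and SERPINC1, the antithrombin gene, for coagulation. OE33 libraries therefore held few counts for C1 substrates (C2, C4A, C4B) and for the terminal components C6, C7, C8A, C8B and C9. C4A and C4B are near-identical copies whose reads may be split or dropped, so their low counts are uncertain.

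In HFD against ND, 10 of 23 tested complement genes were higher and 4 lower, with a median log2 fold change of 0.13. All tested genes had a median of -0.012, and 25.6% of them were called higher and 23.9% lower. Without the members, which were chosen from these values, 4 of 17 complement genes were higher and 4 lower, with a median of 0.057. C5AR1, the receptor of the C5a fragment, fell from 2.63 ± 0.373 CPM (SD, n = 3) to 0.762 ± 0.181 (log2 fold change -1.79, adjusted p = 1.46e-06). CLU, a secreted inhibitor of the terminal complex, fell from 47.5 ± 2.4 to 21.3 ± 1.36 CPM (-1.17, adjusted p = 1.03e-10). ITGAX, a chain of complement receptor 4, rose from 4.03 ± 0.354 to 7.52 ± 0.612 CPM (0.91, adjusted p = 3.47e-06). The 14 macrophage and leukocyte markers summed to 6.23 to 6.66 CPM with HFD and 5.06 to 5.86 with ND. CD14 (5.28 ± 0.533 against 4.65 ± 0.326 CPM) made up most of the sum, S100A8 had 19, 9 and 23 counts against 4, 5 and 5, and PTPRC, the pan-leukocyte marker, had at most 3 counts in any of these libraries. At few counts each, CSF1R (0.368 against 0.31 CPM) was higher with HFD, while LYZ (0.0416 against 0.122) and FCER1G (0.0614 against 0.124) were lower. The part of leukocyte marker expression in the ITGAX values was not tested. Of 23 tested coagulation genes, 10 were higher and 6 lower, with a median of 0.067 with or without the members. THBD (thrombomodulin) rose from 31 ± 0.455 to 59.3 ± 2.56 CPM (0.94, adjusted p = 1.02e-10), SERPINA1 (alpha-1-antitrypsin) from 9.65 ± 0.943 to 19.3 ± 4.56 (0.97, adjusted p = 1.15e-05) and F8 from 3.98 ± 0.504 to 6.17 ± 0.363 (0.66, adjusted p = 0.000165). SERPINE2 (-0.43, adjusted p = 5.09e-07) and F2RL1, a protease-activated receptor (-0.41, adjusted p = 3.89e-08), fell. TFPI, the inhibitor of the tissue factor complex, was lower as well (-0.37, adjusted p = 4.53e-06), and the ratio of F3 to TFPI CPM was 40.2 to 46.5 with HFD and 14.7 to 15.8 with ND. The summed level of 10 markers of endothelium, which expresses THBD and TFPI in vessels, was 77.1 to 81 CPM with HFD and 64.6 to 72.1 with ND. ENG and ESAM carried it, and PECAM1 had at most 3 counts in any of these libraries.

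In HA-TRIM15 against EV, 3 of 17 tested complement genes were higher and 1 lower (median -0.016, all genes -0.0065), and without the members 1 was higher and 1 lower (median -0.032). Of all tested genes, 12.5% were called higher and 9.53% lower. ITGAM rose from 4.93 ± 0.147 to 6.32 ± 0.646 CPM (0.35, adjusted p = 0.0365), and C1QBP, a mitochondrial protein that binds C1q, fell from 121 ± 4.34 to 109 ± 8.44 (-0.14, adjusted p = 0.0481). Of 20 tested coagulation genes, 5 were higher and 3 lower, with a median of 0.036 (0.041 without the members). F2R (0.21, adjusted p = 0.0177), F2RL1 (0.18, adjusted p = 0.00205) and LMAN1, a transport receptor for factors V and VIII (0.18, adjusted p = 0.00196), rose, as did GGCX and MCFD2. The 3 lower genes were F12 (-0.46, adjusted p = 0.0047) and the fibrinogen chains FGA (-2.35, adjusted p = 0.0221) and FGB (-1.45, adjusted p = 0.0222), which were named after their values were seen. FGA had 0, 0 and 6 counts with HA-TRIM15 and 11, 14 and 18 in EV. The 1 HA-TRIM15 library with FGA counts was also the 1 with ALB counts, and the summed level of 20 liver markers was 3.02, 3.25 and 6.76 CPM over the HA-TRIM15 libraries and 6.41, 9.75 and 11.7 over the EV libraries. Red cell transcripts were present in both groups, with 67, 204 and 205 HBB counts in EV and 37, 47 and 96 with HA-TRIM15, and 11, 34 and 41 HBA1 counts against 5, 13 and 38. The part of liver or blood RNA in the fibrinogen values was not tested. When each library was left out in turn, the calls of ITGAM (5 of 6 fits), C1QBP and FGA (4 of 6), F2R and GGCX (3 of 6), and FGB and MCFD2 (2 of 6) were lost in part, with the highest adjusted p at 0.196 for C1QBP, while those of F2RL1, LMAN1 and F12 were kept in all 6. Without EV replicate 3, the lowest count, 2 complement and 3 coagulation genes were called.

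In shYY2 against its control, 11 of 17 tested complement genes were higher and 4 lower (median 0.49, all genes -0.0081), and without the members 6 of 11 were higher and 4 lower (median 0.42). Of all tested genes, 36.8% were called higher and 38.1% lower. C5AR1 rose from 0.674 ± 0.206 to 3.86 ± 0.189 CPM (2.51, adjusted p = 2.30e-08) and ITGAX from 2.12 ± 0.335 to 11.6 ± 0.396 (2.45, adjusted p = 5.16e-11). C1QBP fell from 101 ± 2.24 to 39 ± 1.66 CPM (-1.37, adjusted p = 6.77e-14), and C5 (-0.92, adjusted p = 0.0173) and ITGAM (-0.75, adjusted p = 1.04e-05) were lower. The call of C5 was lost without shYY2 replicate 2 or without replicate 3 of the control (adjusted p up to 0.11). The 14 leukocyte markers summed to 4.2 to 4.76 CPM with shYY2 and 4.49 to 4.99 in the control. Of 22 tested coagulation genes, 9 were higher and 7 lower, with a median of 0.13 (0.17 without the members). PROC, the protein C gene (2.29, adjusted p = 1.98e-05), and GP1BA, a platelet receptor chain (1.74, adjusted p = 1.38e-05), rose from means under 1 CPM in the control, and F12 fell (-0.71, adjusted p = 5.15e-06). TFPI rose from 31.2 ± 1.44 to 68.1 ± 1.21 CPM (1.13, adjusted p = 2.43e-12) while F3 was lower, so the ratio of F3 to TFPI was 16.2 to 16.7 with shYY2 and 56.7 to 57.5 in the control.

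In shFOXRED1 against its control, 3 of 20 tested complement genes were higher and 6 lower (median 0.00062, all genes 0.012), and without the members 3 of 14 were higher and 3 lower (median 0.23). Of all tested genes, 16.8% were called higher and 19.7% lower. C1RL rose from 44 ± 3.55 to 76.9 ± 4.33 CPM (0.81, adjusted p = 2.15e-07). CR2 fell from 2.75 ± 0.765 to 1.12 ± 0.338 CPM (-1.30, adjusted p = 0.00354). Of 20 tested coagulation genes, 1 was higher and 9 lower, with a median of -0.3 (-0.27 without the members). The higher gene was TFPI (0.25, adjusted p = 0.00406), with a ratio of F3 to TFPI of 2.24 to 2.42 with shFOXRED1 and 4.89 to 5.33 in the control. SERPINE2 fell from 40.3 ± 3.42 to 15.1 ± 1.49 CPM (-1.42, adjusted p = 7.01e-09), THBD from 54.3 ± 5.53 to 25.5 ± 1.44 (-1.09, adjusted p = 3.36e-08) and F2R from 47 ± 1.58 to 28.1 ± 2.38 (-0.75, adjusted p = 1.26e-06). The endothelial markers summed to 90.2 to 100 CPM with shFOXRED1 and 101 to 120 in the control. ENG (75.3 against 86 CPM) and ESAM (19.8 against 25.1) carried this sum in these cultured cells. CDH5 had 9, 8 and 7 counts against 7, 2 and 3 in the control, and PECAM1 had 2, 0 and 2 against 6, 2 and 2. Their part in the THBD values was not tested.

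Outside the members, F2RL1 and LMAN1 were the list genes called in all 4 experiments. How many of all genes were called in all 4, or in the directions given below, is not given here. F2RL1 was higher with HA-TRIM15 and lower in the other 3, with log2 fold changes of -0.61 with shYY2 (adjusted p = 2.74e-11) and -0.32 with shFOXRED1 (adjusted p = 0.000132). LMAN1 was higher with HFD (0.34, adjusted p = 7.61e-07), HA-TRIM15 and shYY2 (0.19, adjusted p = 1.84e-05) and lower with shFOXRED1 (-0.25, adjusted p = 0.0035), the same directions as CD46 and CD55.

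**Figure D4:**
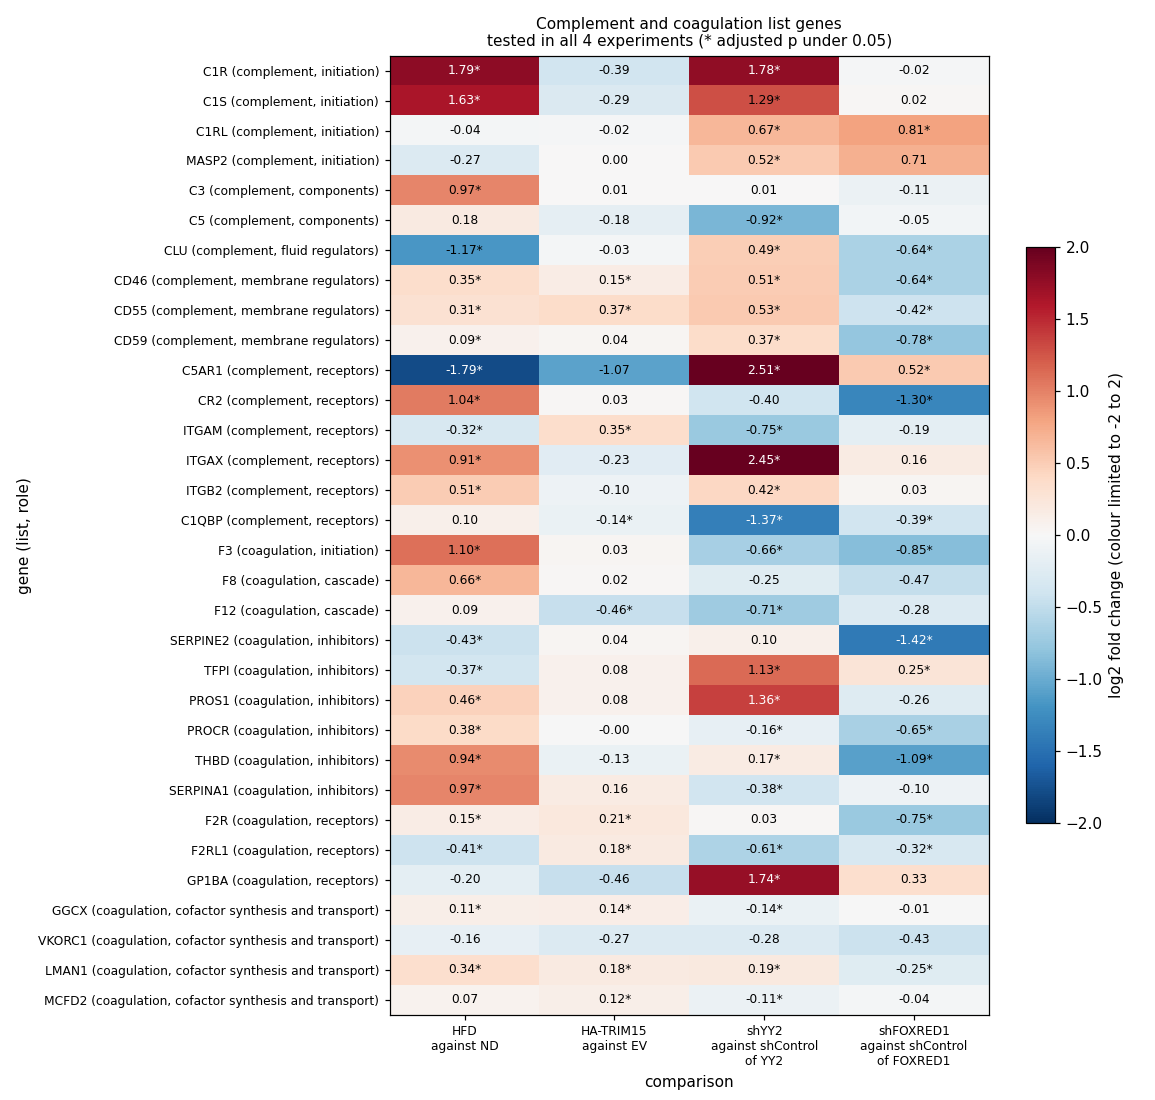
Fitted log2 fold change (color and printed value) of the 32 complement and coagulation list genes (y axis, with list and role) tested in all 4 experiments, by comparison (x axis). A star marks an adjusted p under 0.05, and the color is limited to values between -2 and 2. C5AR1 is blue with HFD and red with shYY2, and the HA-TRIM15 column is the palest.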

How the data were processed

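RNA was measured in 24 libraries of OE33 cells, cultured or grown as xenografts (8 groups of 3). One table per experiment was deposited, holding raw read counts that the authors had not normalized. Libraries were made from polyadenylated RNA and read as 150-base pairs on a DNBSEQ instrument. The submitters' processing notes name the builds hg38 and mm10 without a role, and the aligner, counter and handling of mouse reads are not given in the sources used here, so mouse reads could have added to the xenograft counts. Symbols were found for 99.8% of 61860 identifiers, and positions and exon lengths come from GENCODE 29.

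Within each experiment, genes passing filterByExpr (minimum count 10, minimum total 15) were fitted with TMM normalization and edgeR's quasi-likelihood test (edgeR 4.0.16, R 4.3.3). P-values were adjusted by Benjamini and Hochberg's method across every tested gene, and the threshold was 0.05. A standard error is that of the log2 fold change. Every adjusted p printed comes from this test. Levels compared between genes are CPM after TMM over all 24 libraries, divided by exon length. The similarity measure added 0.5 CPM before the logarithm. The procedure was tested on simulated counts in which 200 genes were altered per experiment. Of the calls made there, 11.5% were false in the diet experiment, 4.94% with HA-TRIM15, 7.33% with shYY2 and 9.93% with shFOXRED1. Of 50 genes altered by a fold of 1.2, it recovered 46%, 50%, 38% and 18%, in the same order. For a fold of 2 these shares were 96%, 88%, 82% and 84%. The fits of the data called between 3474 and 11997 genes, far more than were altered here, so these shares need not hold for those fits.

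The 9 genes and the wider lists were chosen with earlier results of these data known. Besides the members, the text names in each experiment up to 4 list genes per direction with the largest called change, if groups did not overlap and the 6 libraries averaged 1 CPM or more, and list genes past the threshold in all 4 experiments. C1RL with shYY2, EMG1, PI4KA, TFPI with HFD and shYY2, FGA, FGB, GGCX and MCFD2 were added after their values were seen. One list gene that the rule names is not reported here.

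Replicate numbers were checked for pairing by the correlation of same-numbered libraries' deviations from their group means. It was 0.207, 0.115 and 0.381 in the shFOXRED1 experiment, where the numbers may pair the libraries, although no label gives a reason. The main shFOXRED1 fit did not use this pairing, and the replicate block was run as an alternative only. In the other 3 experiments it ranged from -0.0787 to 0.215, and none of them had all 3 values above 0.1. Replicates differed by more than sampling noise in every group. Alternatives were DESeq2 1.42.0 size factors and Wald test, no filter, a minimum of 10 counts in each library, the replicate block, a fold of at least 1.5, and leaving out each library.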

Additional observations from a re-analysis of the deposited data

How the results depend on the processing

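For the 9 genes, 30 fitted log2 fold changes were recomputed under up to 11 alternatives, 326 values in all. Of these, 305 kept their direction and their side of the threshold, 8 lost the call, 3 gained one and 10 changed sign. All 8 lost calls were CD59 with HFD, whose log2 fold change stayed between 0.069 and 0.11. It was lost with no filter (0.10), with 10 counts in every library, with the block and without any 1 of HFD replicates 1, 2 and 3 and ND replicates 2 and 3. The gained calls were F3 with HA-TRIM15 without HA-TRIM15 replicate 1 (0.067) and C3 with shFOXRED1 under the block and under DESeq2's Wald test (-0.12). The changes of sign were in values that were not called. C3 with HA-TRIM15 was -0.0065 with no filter and lay between -0.019 and 0.033 when each library was left out, C3 with shYY2 between -0.021 and 0.022, and with shFOXRED1 C1R lay between -0.16 and 0.15 and C1S between -0.13 and 0.28. The cause was not tested.

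A fold of at least 1.5 removes small changes by construction. Calls over all genes then numbered 2037 with HFD (8415 without this limit), 296 with HA-TRIM15 (3474), 6331 with shYY2 (11997) and 1702 with shFOXRED1 (5752). In the same order, member calls numbered 5, 0, 3 and 4, complement list calls 9, 0, 9 and 6, and coagulation list calls 8, 2, 10 and 7. Leaving out 1 library moved the HA-TRIM15 counts furthest. Calls over all genes lay between 2034 and 5100, with the highest without HA-TRIM15 replicate 1 and 2243, 2176, 2186 and 2034 without HA-TRIM15 replicate 2 and EV replicates 1, 2 and 3. The complement list had 2 to 4 calls there and the coagulation list 3 to 9, against 4 and 8 in full, and DESeq2's Wald test called 5 coagulation genes. With the replicate number as a block, 6793 genes were called with shFOXRED1, and beside C3 the block changed the call of CD59 with HFD alone among the members. With DESeq2's size factors in place of TMM, again 34 neighboring pairs in the orders of the groups did not overlap. SERPIND1 in 2 experiments and CFI in all 4 had too few counts for the filter. With no filter, SERPIND1 was called lower with shYY2, from 0 or 1 count per shYY2 library.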
